A study of Arabidopsis thaliana with 6 samples.

Results

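This account covers 7 Arabidopsis genes for glycine-rich RNA-binding proteins and cold-shock proteins, out of 27444 protein-coding genes on the 5 nuclear chromosomes, and the ChIP-seq peaks found on them or within 1000 bp. The genes are GRP7 (AT2G21660), GRP8 (AT4G39260) and GRP4 (AT3G23830), with an RNA-recognition motif, and GRP2 (CSP2, AT4G38680), GRP2B (CSP4, AT2G21060), CSP1 (AT4G36020) and CSP3 (AT2G17870), with a cold-shock domain. They were chosen by gene family with the peaks of these same lists already known, so the peaks and scores on them are a description, and no test was made of them. All 7 were found by locus tag.

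The study mapped where EBS (EARLY BOLTING IN SHORT DAYS) sits on chromatin by ChIP-seq, in which DNA bound by a protein is pulled down with an antibody and sequenced. Whole Col-0 seedlings, aged around 10 days and kept in 16 h of light and 8 h of dark with no treatment, gave all 6 samples, and all carried the same genotype, an ebs shl double mutant complemented with FLAG-tagged EBS under the native EBS promoter. In 3 samples EBS was pulled down with an anti-FLAG antibody, and the other 3 were input DNA that saw no antibody and whose own values were not analysed here. Whether the numbered samples came from separate plantings, and how many transgenic lines they represent, is not given in the sources used here.

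EBS is a reader of methylated histone H3 tails that delays flowering. GRP7 and GRP8 are close relatives whose transcripts follow the circadian clock and rise in the cold, and their proteins bind RNA and steer splicing, including that of their own transcripts. Loss of GRP7 delays flowering through the repressor FLC. Plant cold-shock proteins resemble bacterial RNA chaperones that melt RNA structure at low temperature. GRP2 and GRP2B are short proteins with few zinc knuckles after the cold-shock domain, and CSP1 and CSP3 are longer, with more of them.

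Each ChIP sample came with its own peak list of chromosome, start, end and score, and this peak caller writes as score the negative log10 of a p-value, multiplied by 10. The lists held 5237, 4216 and 3661 nuclear peaks in replicates 1, 2 and 3. Many strong peaks were tied at 3100, with 11, 6 and 7 peaks above that value, and 88, 97 and 46 peaks reached it. A score depends on sequencing depth and on the control, neither of which a peak list shows, so each was ranked only within its own list. The depth behind every value is unknown. Untagged plants were not among the samples, so a recurring peak can be EBS or recurring background. A peak in whole seedlings does not separate more cells with the protein from more protein per cell, and the lists hold no expression values against which the tissue label could be checked. At the 2 altered loci, the best peak on the gene or within 1000 bp was taken. For EBS it scored 236 in replicate 1 and 117 in replicate 2, with no such peak in replicate 3. For SHL the scores were 85.8, 780.2 and 34.5 in replicates 1, 2 and 3.

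Peaks lay on the gene body of 4 of the 7 genes in every list, and those genes were GRP7, GRP8, GRP2 and GRP2B. Of all protein-coding genes 3.75% had a peak on the body in all 3 lists. GRP4, CSP1 and CSP3 had no peak on the body in any list, and their nearest peaks sat on a neighbouring gene. The share of all protein-coding genes with no peak on the body in any list was not computed. With 1000 bp on either side included, 6, 6 and 5 of the 7 genes had a peak in replicates 1, 2 and 3, where 20.8%, 17.1% and 11.7% of all protein-coding genes did. A peak in all 3 lists within that distance was found for 5 of the 7, adding CSP3, against 6.09% of all genes. These shares are given only as the background, since the genes were chosen with the peaks known.

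**Figure D1:**
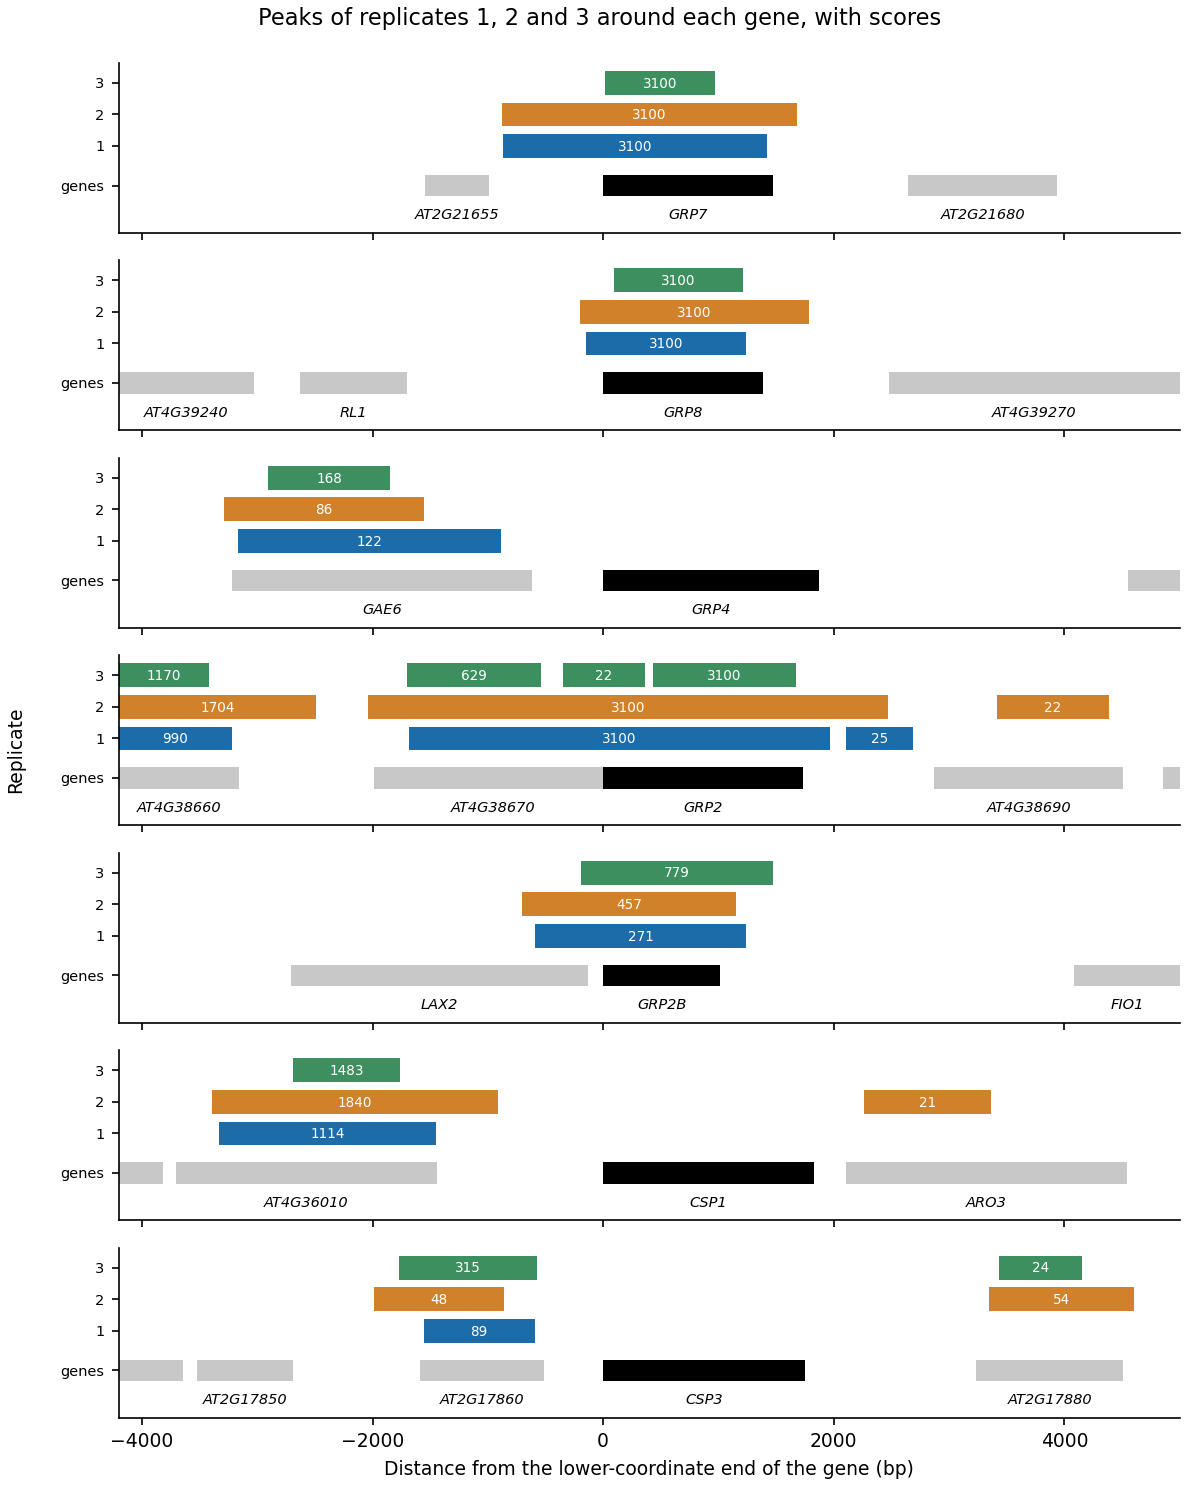
Peaks of replicates 1 (blue), 2 (orange) and 3 (green) as bars with their scores, against distance in bp from the lower-coordinate end of each gene (black; other protein-coding genes in grey, bars cut at the panel edge). GRP7, GRP8, GRP2 and GRP2B lie under a peak in all 3 lists, and the peaks near GRP4, CSP1 and CSP3 lie on other genes.

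The highest scores were those of GRP7, GRP8 and GRP2. Each of these 3 genes had a score of 3100 on its body in all 3 lists. A score of 3100 or more on the body in all 3 lists was found for 33 of the 27444 protein-coding genes (0.12%). A score of 3100 was above 98.3% of the nuclear peaks of replicate 1, 97.7% of those of replicate 2 and 98.7% of those of replicate 3. Because all 3 genes share that tied value, they cannot be ordered among themselves.

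GRP7 encodes an RNA-binding protein with a glycine-rich tail that represses its own transcript. Its peak scored 3100 in each list and spanned chromosome 2 from 9264218 to 9266501 in replicate 1, from 9264205 to 9266762 in replicate 2, and from 9265098 to 9266052 in replicate 3 (TAIR10). The peaks covered 96.2% of the gene body in replicate 1, all of it in replicate 2 and 64.8% in replicate 3. In replicates 1 and 2 they ran 866 and 879 bp past the lower-coordinate end, whereas the replicate 3 peak began 14 bp inside that end and stopped 505 bp short of the other. The bases shared by all 3 lists were thus the 955 bp of the replicate 3 peak, all on the gene. That peak was narrow for its score: 5 of the 46 peaks of replicate 3 at 3100 or more were narrower, against 71 of 88 in replicate 1 and 63 of 97 in replicate 2.

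GRP8, the closest relative of GRP7 and repressed by it, gave the same picture on chromosome 4. Its peaks, again at 3100 in every list, spanned 18273679 to 18275070, 18273629 to 18275613 and 18273919 to 18275043 in replicates 1, 2 and 3. They covered 89.5% of the body in replicate 1, all of it in replicate 2 and 81.1% in replicate 3, and ran at most 200 bp past the lower-coordinate end and 397 bp past the higher one. The replicate 3 peak again lay within the other two, so 1125 bp were shared, all on the gene.

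No other gene of the annotation, coding or non-coding, was touched by any peak on GRP7 or GRP8. From the GRP7 peak the next peak of the same list was 7509, 62279 and 57926 bp away in replicates 1, 2 and 3, and from the GRP8 peak 14459, 49045 and 9558 bp. The median distance from a peak to its nearest neighbour was 5032, 5949 and 6041 bp over all nuclear peaks of the 3 lists. Distances at GRP7 and GRP8 were above that median in every list, although the shorter ones were close to the middle of their lists: 60.4% of the replicate 1 peaks had a smaller distance than GRP7 and 59.6% of the replicate 3 peaks a smaller one than GRP8.

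GRP2 encodes a cold-shock domain protein, and its setting differed from that of GRP7 and GRP8. In replicates 1 and 2 a single peak at 3100, of 3655 and 4509 bp, covered the whole of GRP2. It also covered 85.6% of the adjoining AT4G38670 in replicate 1 and all of it in replicate 2, on chromosome 4 from 18069762 to 18073416 and from 18069414 to 18073922. In replicate 3 the same stretch held 3 separate peaks. The peak of 3100 in that list, from 18071880 to 18073120, lay wholly within GRP2 and covered 71.6% of it. A weak peak of 21.6 from 18071104 to 18071809 crossed the boundary, where the ends of the GRP2 and AT4G38670 annotations overlap. A peak of 629 from 18069748 to 18070909 lay on AT4G38670 alone.

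The replicate 3 list therefore placed its best score on GRP2 and a lower one on the neighbour, while the other lists do not divide the score between the genes. Bases covered in all 3 lists made up 92.4% of the GRP2 body. Other peaks lay close to the best peak on GRP2. From the edge of that peak the next one was 143, 451 and 71 bp away in replicates 1, 2 and 3. In replicate 1 this neighbour was a peak of 25.1, 377 bp outside the gene. In replicate 3 it was the weak peak of 21.6 already described, which lay partly on GRP2. In replicate 2 it was the peak of 1704 on AT4G38660 and its surroundings. Measured from the gene instead, the peaks on AT4G38660 and its surroundings lay 2486 to 3416 bp from GRP2. Their scores were 990.4, 1704 and 1169.96 in replicates 1, 2 and 3.

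GRP2B, the closest cold-shock relative of GRP2, held weaker peaks of 271, 457 and 779 in replicates 1, 2 and 3. These scores were above 82.6%, 83.9% and 86.7% of the peaks of their own lists, so the rank was alike in the 3 lists although the scores were not. The peaks spanned chromosome 2 from 9036175 to 9038007, 9036061 to 9037920 and 9036578 to 9038236. The whole gene was covered in every list. All 3 peaks also reached into LAX2 (AT2G21050), which encodes an auxin influx carrier, and covered 17.9%, 22.3% and 2.3% of it. The 1343 bp shared by the 3 lists lay 75.7% on GRP2B. The next peak was 8406, 8528 and 8644 bp away, above the median distance in each list but close to the middle. A smaller distance was found for 63.6%, 57.6% and 57.8% of the peaks of replicates 1, 2 and 3.

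**Figure D2:**
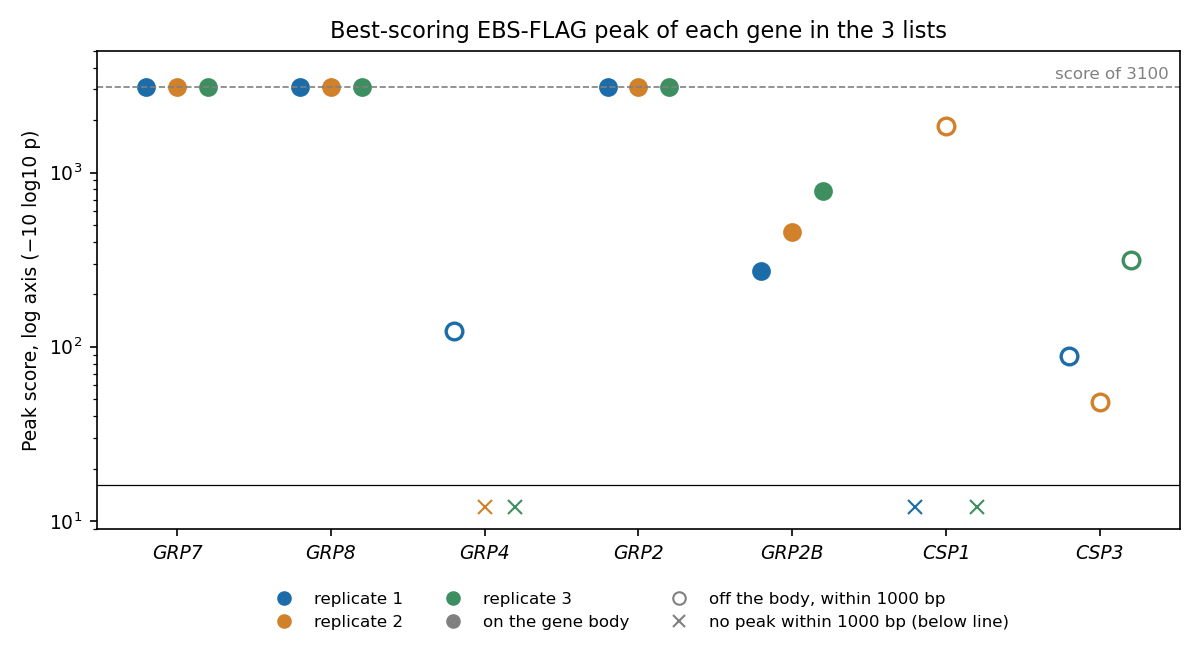
Best peak score (log axis) of each of the 7 genes in replicates 1, 2 and 3, filled where the peak lies on the gene body, open where it lies off it within 1000 bp, and a cross where there is none. GRP7, GRP8 and GRP2 sit at 3100 in all 3 lists and GRP2B between 271 and 779, while the scores of GRP4, CSP1 and CSP3 come from peaks off the gene.

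CSP1 and CSP3, the cold-shock genes for longer proteins, had no peak on the body. CSP3, which is needed for full freezing tolerance, had peaks at 593, 863 and 572 bp in replicates 1, 2 and 3, with scores of 89.0, 48.3 and 315. Those scores were above 71.4%, 53.4% and 70.6% of the peaks of their own lists. The peaks lay on chromosome 2 from 7761971 to 7762935, 7761537 to 7762665 and 7761756 to 7762956. All 3 were on the neighbour AT2G17860 and covered 89.5%, 67.3% and 94.2% of it. On the other side of CSP3, AT2G17880 held peaks of 54.4 and 24.2 in replicates 2 and 3, 1600 and 1685 bp away.

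CSP1 lay near a strong peak of every list, and the distance limit decided whether it counted. Peaks on AT4G36010 with scores of 1114, 1839.9 and 1483 ended 1447, 909 and 1763 bp from CSP1 in replicates 1, 2 and 3, so the replicate 2 peak alone was within 1000 bp. They spanned chromosome 4 from 17039440 to 17041322, 17039375 to 17041860 and 17040079 to 17041006, and covered 83.2%, 86.2% and 41.0% of AT4G36010. A second peak near CSP1, on the other side and 428 bp away, was found in replicate 2 alone with a score of 21.1. It lay on ARO3 (AT4G36030) and the lncRNA gene AT4G36032.

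GRP4, an RNA-recognition motif protein found in mitochondria, likewise had a peak within 1000 bp in 1 list alone. The peaks near it lay on GAE6 (AT3G23820), which encodes a UDP-glucuronate epimerase of pectin synthesis, at scores of 122, 85.9 and 168 in replicates 1, 2 and 3. Those scores were above 74.9%, 65.7% and 58.5% of the peaks of their own lists. The peaks ended 888, 1556 and 1846 bp from GRP4, on chromosome 3 at 8605541, 8604873 and 8604583. The replicate 1 peak thus counted for GRP4 and the other two did not. Body cover of GAE6 was 87.7%, 63.9% and 40.9%, and that of GRP4 was 0.0% in each list.

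Merging peaks of the lists that share at least 1 bp gives regions, and a region with a peak of all 3 lists is called reproducible. By that measure 7 of the 7 genes had a reproducible region within 1000 bp, against 6.68% of all protein-coding genes. For GRP4, CSP1 and CSP3 these regions (2398, 2486 and 1420 bp long) lay 888, 909 and 572 bp outside the gene. The count of 7 therefore fell to 4 with the gene body alone and to 4 with a flank of 500 bp, which kept GRP7, GRP8, GRP2 and GRP2B. The shares of all protein-coding genes under those settings were not computed. Only the replicate 1 peak brought the GRP4 region within 1000 bp, and only the replicate 2 peak the CSP1 region. Bases covered in all 3 lists lay 1846 bp from GRP4, 1763 bp from CSP1 and 863 bp from CSP3.

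Within each protein class the genes were split. Of the RNA-recognition motif genes, GRP7 and GRP8 carried peaks at 3100 and GRP4 none on its body. Of the cold-shock genes, GRP2 and GRP2B, for short proteins, carried peaks on the body in all 3 lists. CSP1 and CSP3, for longer proteins, carried none there in any list. This order was seen in these 7 genes and was not tested. A peak on the body in all 3 lists was found for 3.75% of all protein-coding genes, so its absence was the common state.

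Other RNA-binding genes outside the 7 made up a list of 9: GR-RBP2, GR-RBP3, GR-RBP5, GR-RBP6, RZ-1A, RZ-1B, RZ-1C, ORRM1 and ORRM2. A peak within 1000 bp was found for 3, 2 and 3 of them in replicates 1, 2 and 3. Over all protein-coding genes the shares were 20.8%, 17.1% and 11.7%. In all 3 lists 2 of the 9 had one, against 6.09% of all protein-coding genes. No peak in any list was found for 5 of the 9, and the share of all genes without one was not computed. Those with a peak in all 3 lists were RZ-1A and GR-RBP3. RZ-1A (AT3G26420), which encodes a cold-induced zinc-finger glycine-rich protein, had scores of 609, 890.5 and 509 on its body, above 88.8%, 89.5% and 79.5% of its lists. Its peaks with those scores lay on chromosome 3 from 9671497 to 9673404, 9672730 to 9673578 and 9672721 to 9673325. GR-RBP3 (AT5G61030), an organelle RNA-editing factor, had 24.6, 20.04 and 29.3, above 26.8%, 0.2% and 21.6% of its lists, and its replicate 1 peak lay 274 bp outside the gene. That peak, on chromosome 5 from 24562801 to 24563342, overlapped neither of the others. Those ran from 24561348 to 24561895 in replicate 2 and from 24561498 to 24562226 in replicate 3. GR-RBP5 had a peak in replicate 1 alone (23.6) and RZ-1B in replicate 3 alone (31.6).

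GRP7 acts on flowering beside the autonomous pathway, a set of RNA-processing and chromatin genes that lower FLC. A list of 10 genes held 7 of that pathway, FLC itself, PRMT5, which methylates GRP7, and TRN1, the nuclear import receptor of GRP7. None of the 10 had a peak within 1000 bp in all 3 lists, against 6.09% of all protein-coding genes. In replicates 1, 2 and 3, 2, 3 and 2 of them had one, FLC among those of replicates 1 and 2, against 20.8%, 17.1% and 11.7% of all genes. FLC had no peak within 1000 bp in replicate 3. Its replicate 1 and 2 peaks of 1403 and 1423 lay 853 and 431 bp outside the gene, and a peak of 24.5 lay on its body in replicate 2. The peaks of the others were FPA with 22.8 and PRMT5 with 38.7 in replicate 2, TRN1 with 25.5 in replicate 1, and FY with 76.3 and FLD with 20.1 in replicate 3. FCA, FLK, FVE and LD had no peak.

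Cold regulators and cold-induced genes were the third list. Of 10 genes 2, 3 and 4 had a peak within 1000 bp in replicates 1, 2 and 3, against 20.8%, 17.1% and 11.7% of all protein-coding genes. COR47 (AT1G20440), a dehydrin gene, alone had one in all 3 lists (6.09% of all genes did), with scores of 23.7, 174 and 48.9 on its body. Those were above 22.4%, 74.6% and 36.4% of the peaks of replicates 1, 2 and 3. The cold-response activators CBF1 and CBF2 had peaks in replicates 2 and 3, CBF1 with 21.6 and 123 and CBF2 with 34.3 and 76.6, while CBF3 had none. In replicates 2 and 3 the CBF1 scores were above 8.7% and 53.1% of the peaks, and the CBF2 scores above 42.1% and 44.8%. RCF1, an RNA helicase, had 36.4 in replicate 3, and COR15A 82.1 in replicate 1, 771 bp outside the gene. LOS4, ICE1, RD29A and KIN1 had no peak in any list. No gene of the 3 lists reached 3100.

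Other genes named glycine-rich were set beside the 7, a comparison chosen after the values were seen. Of 11 further protein-coding genes that the gene table names as glycine-rich, 8 had a peak within 1000 bp in all 3 lists, where 6.09% of all protein-coding genes did, and 7 had one on the body, where 3.75% did. GRP5 (AT3G20470) had 3100, 3100 and 3024 and GRP23 (AT2G32690) had 1700.0, 2038 and 1767. The pollen-coat oleosin genes of chromosome 5 hold 6 of the 11 places, lie next to each other and share peaks: GRP19 and GRP20 had the same 2219, 2767 and 1322. GRP9 had 21.3, 20.2 and 48.2, and GRP-3 had no peak. High scores were thus found at other genes named glycine-rich as well, and the sets were not tested against each other.

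**Figure D3:**
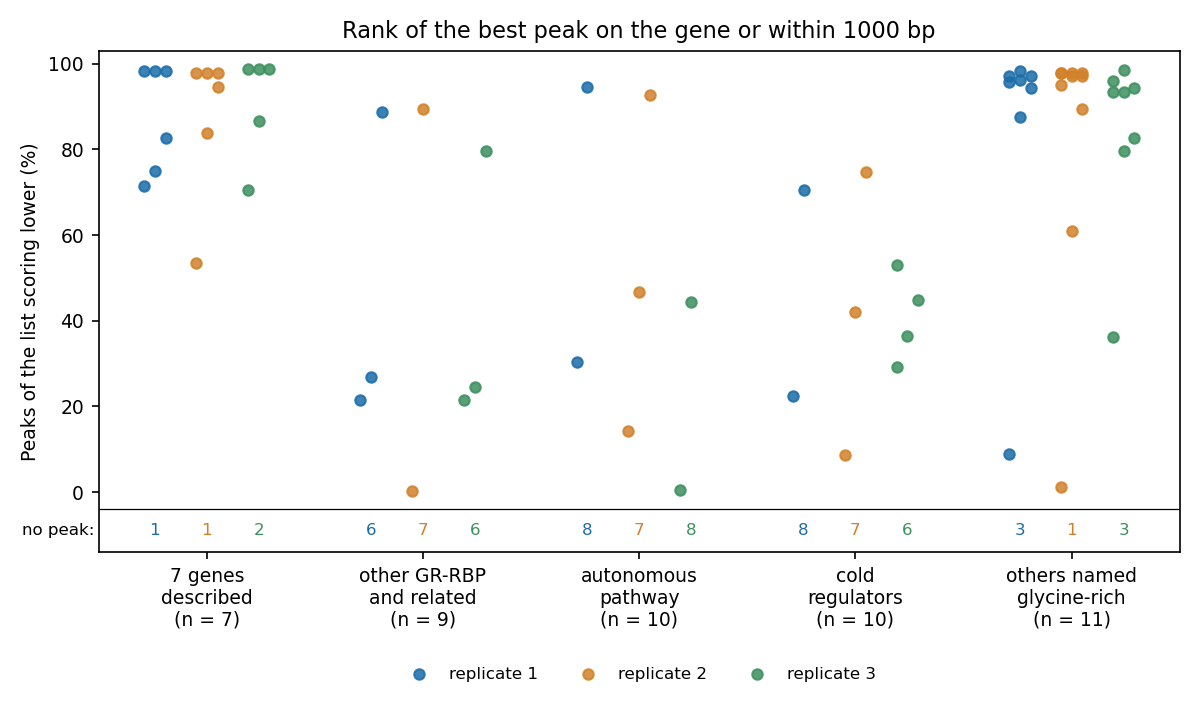
Percent of a list's nuclear peaks that score lower than the best peak of a gene on it or within 1000 bp, for the 7 genes and 4 comparison lists, one point per gene with a peak in replicates 1 (blue), 2 (orange) and 3 (green); the numbers under the line count genes without a peak. GRP7, GRP8 and GRP2 form the top points of the first column at 98.3%, 97.7% and 98.7%, and RZ-1A is the top point of the second.

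For the 5 of the 7 genes with a peak in all 3 lists, which leaves out GRP4 and CSP1, the most similar genes were sought by the rank of the best peak in the 3 lists, as the Euclidean distance in percentile points, among genes that share no peak with it. GRP7 and GRP2 were at distance 0.0 from 48 protein-coding genes and GRP8 from 49, all with 3100 or more in every list within 1000 bp, the first by locus tag being AT1G05136 and AT1G07120. The genes searched were 1669 for GRP7 and GRP2 and 1670 for GRP8, of 1671 with a peak in all 3 lists. The rest of the 7 were not left out, so GRP7, GRP8 and GRP2 count among the genes tied with each other. GRP2B was nearest to AT2G02840 (237, 449 and 777, distance 1.39) and AT3G07580 (253, 502 and 842, distance 1.59). CSP3, through the peaks on its neighbour, was nearest to AT2G06541 (distance 5.42) and AT1G24290 (distance 5.48).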

How the data were processed

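DNA pulled down with anti-FLAG from 3 ChIP samples was described by 1 deposited peak list each; the 3 input samples were not used separately. Per the submitters' processing notes, the tools were Bowtie2 2.2.8, SAMtools 1.3 and MACS 1.4 on build TAIR10. For the threshold and the part the input played, nothing is given in the sources used here. The deposited score of each peak is the authors' own value, unchanged here. Organelle peaks were left out. Starts were converted to count from 1.

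Genes came from a RefSeq table of TAIR10.1, whose nuclear frame was taken to be that of TAIR10: 74.0% of the midpoints of 1780 reproducible regions lay in a gene, against 57.4% to 60.7% after shifts of 1000 to 50000 bp. The table has no strand and no exons, and none of its coordinates is printed. All 29 genes used from the 3 comparison lists were matched by locus tag, and 1 further gene of the design is not reported here. Peaks were assigned with Python 3.11.15, numpy 2.4.6 and pandas 2.3.3 to genes they overlap or lie within 1000 bp of. Ranks treat scores above 3100 as 3100. The code was tested on simulated lists.

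The genes, the lists and the alternatives were chosen with earlier results of these data known. Named were the 7 genes, genes sharing a peak with the 7, and the 2 genes nearest in rank. Genes of the 3 comparison lists were named where they had a peak in all 3 lists or where a small count rested on them. Every other name in the text was added after values were seen. Promoter motifs and protein comparisons of the design were not run, since no sequence was used here.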

Additional observations from a re-analysis of the deposited data

How the results depend on the processing

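The count of genes with a reproducible region, 7 of 7, became 4 with the gene body alone and 4 with a flank of 500 bp, since the regions near GRP4, CSP1 and CSP3 lie 572 to 909 bp outside them. It was 5 with peaks scoring at least 100, 7 with lists of equal length (3661 peaks), 7 when peaks had to share 50% of the shorter one, and 6 to 7 on leaving out 1 replicate, GRP4 being lost without replicate 1 and CSP1 without replicate 2. A score of 100 was not an alike threshold across the lists. It was reached by 27.5%, 32.0% and 50.4% of the peaks of replicates 1, 2 and 3. The count with a peak in all 3 lists, 5, lay between 4 and 7 under the other flanks and thresholds and was 5 without any 1 replicate. It was 7 with a flank of 2000 bp, a wider window that takes in more peaks for any gene. Of all protein-coding genes 3.75% had a peak on the body in all 3 lists, and the shares under the other alternatives were not computed. GRP7, GRP8, GRP2 and GRP2B were the 4 with the body alone, also when a score of at least 100 was asked for together with it, an alternative added after the data were seen. Among peaks at protein-coding genes the 17 ranks moved by -1.7 to 8.3 percentile points. With the body alone GRP4, CSP1 and CSP3 had no rank, and with a flank of 500 bp GRP4 and CSP3 had none and that of CSP1 in replicate 2 went from 94.6% to 5.8%, since its peak on AT4G36010 no longer counted. The best peaks of the other genes lie on the body, so these settings could not move their ranks. No paired analysis was possible because no result comes from a test and the input samples have no values here. Unknown depth and ties at 3100 limit any order among the strongest peaks.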
